A study of Homo sapiens with 8 samples.

Results

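AsPC-1 and PANC-1 are human cell lines from pancreatic ductal carcinoma, AsPC-1 from ascites of a metastatic case and PANC-1 from a primary tumour of the duct. Their RNA was sequenced in 8 libraries, 4 for each line. All cells had spent 3 days in methylcellulose, a thickened medium in which cells grow in 3 dimensions, and were then exposed for 24 h to vehicle, to 10 µM roseoflavin (a riboflavin analogue), to 1 nM trametinib (a MEK inhibitor), or to both compounds. Each line and treatment had 1 library, so the 4 libraries of a line differ in treatment and are not replicates of a condition. Each line is also a sample of 1, and the labels name no separate cultures, so every p-value below measures the spread between these libraries and not between cultures or tumours.

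The subject here is what separated the lines whatever the treatment. Each AsPC-1 library was set against the PANC-1 library of the same treatment, and 12976 genes were compared, out of 62649 in the deposited table and 19141 with a RefSeq mRNA (an accession starting NM_), because they reached 1 TPM in at least 2 libraries. TPM is a read count divided by transcript length, with every library brought to one common sum, so levels of different genes can be compared. Differences are given as AsPC-1 minus PANC-1 on the log2(TPM + 1) scale, so 1 is a doubling at high levels, a positive value is higher in AsPC-1, and changes of low genes are understated. A gene is called higher in a line when limma's Benjamini-Hochberg adjusted p over all 12976 genes was under 0.05, the mean difference was at least 1, and the sign was the same in all 4 treatments.

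Pancreatic ductal tumours are commonly sorted into a classical type, which keeps genes of the gut and duct lining under factors such as GATA6 and HNF4A, and a basal-like type, which loses them. A related axis is the epithelial to mesenchymal transition, in which factors of the SNAI, ZEB and TWIST families bind E-boxes and repress junction genes while cells take on vimentin, N-cadherin and matrix genes.

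Of the genes tested, 1355 (10.4%) were higher in AsPC-1 and 4414 (34%) were higher in PANC-1. The first principal component, which split the lines, held 98.7% of the variance, and the second held 0.37%. Adjusted p was under 0.05 for 11817 genes (91.1%), and the 4 values of one line lay clear of the 4 of the other for 11411 genes (87.9%), so passing the test or not overlapping says little about any gene, and sizes carry the description. Transcripts of the mitochondrial genome, 37 genes named MT-, took 41.2% to 44.1% of TPM in AsPC-1 and 22.8% to 25.6% in PANC-1, which leaves less of the fixed total to the other genes of AsPC-1. The median difference over all genes was -0.61. Rescaled to the same total without the MT- genes, it was -0.26, a shift of 0.34, and the calls were 1853 higher in AsPC-1 and 3320 higher in PANC-1, a share for AsPC-1 of 35.8% of calls in place of 23.5%. With library medians set equal the calls were 2090 and 2356, and after quantile normalization 2124 and 2310. All 1355 genes higher in AsPC-1 kept their call in the rescaled data, while 1192 of the 4414 higher in PANC-1 lost it and 0 changed sides. A gene higher in PANC-1 by little more than 1 should be read with that in mind.

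The 36 gene lists used below held 659 distinct genes, of which 514 passed the filter and 145 did not. Among the 514, 81 were under 1 TPM in all 4 PANC-1 libraries and 49 in all 4 AsPC-1 libraries. Such genes entered only through the line where they are high and had to differ, so counts over a list describe it and are no support for its direction. Each list count below is to be read beside the shares over all genes, 10.4% higher in AsPC-1 and 34% higher in PANC-1.

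The labels were first checked against 4 markers, EPCAM and CEACAM6 for epithelial cells and VIM and CDH2 for mesenchymal cells. EPCAM, an adhesion protein of epithelial cells, was at 1256, 1224, 1485 and 1464 TPM in AsPC-1 with vehicle, roseoflavin, trametinib and both compounds, the order kept for every run of 4 values here. In PANC-1 it was at 16.5, 15.8, 14.5 and 16.8 TPM. The groups lay far apart and the fold between means was 85.4 (difference 6.33, SE 0.071, limma adjusted p 3.35e-12). CEACAM6, a surface glycoprotein of the carcinoembryonic antigen family, had the largest difference of all called genes: 1792, 1775, 2104 and 2046 TPM in AsPC-1 against 0.075, 0.035, 0.097 and 0 TPM in PANC-1. VIM, the filament protein vimentin, was high in both lines, at 816, 765, 732 and 660 TPM in AsPC-1 against 3232, 3391, 3132 and 3325 TPM in PANC-1, a fold of 4.4 between means. CDH2, N-cadherin, was listed at 0 throughout AsPC-1 and stood at 5.56, 5.48, 5.55 and 5.57 TPM in PANC-1. The 4 markers thus followed the line labels, with the limit that vimentin was abundant in AsPC-1 too and that PANC-1 still held EPCAM.

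**Figure D1:**
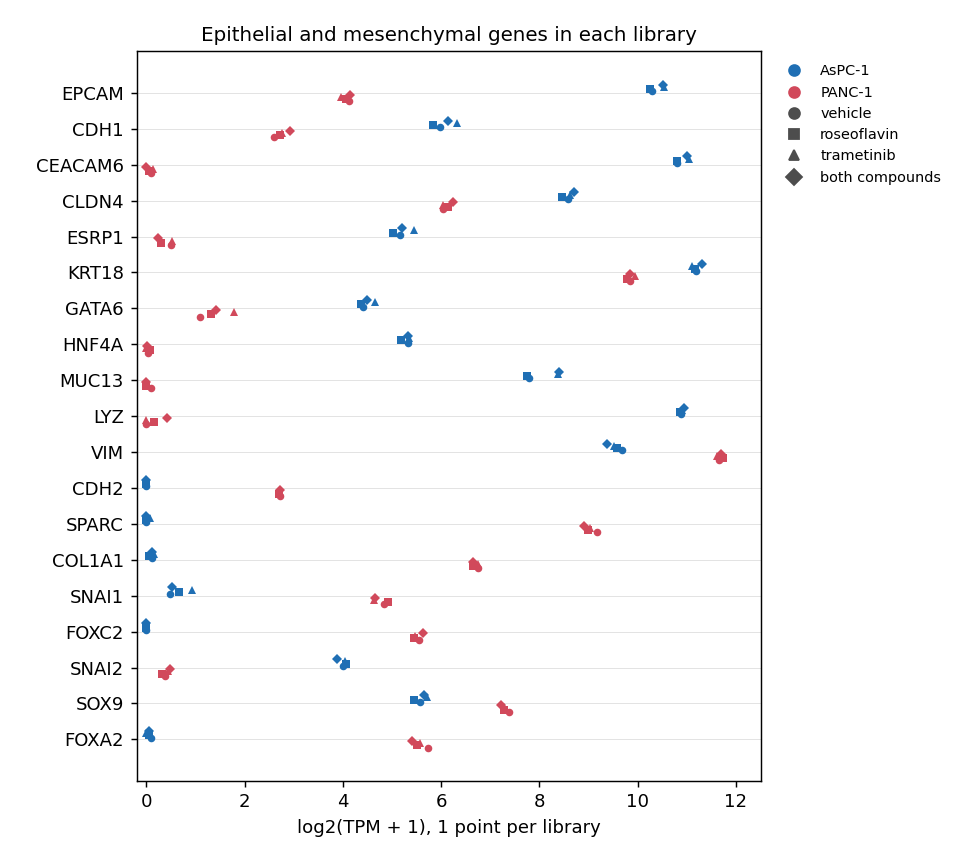
Level of 19 epithelial, subtype and mesenchymal genes in each of the 8 libraries, as log2(TPM + 1), with colour for the line and symbol for the treatment. The 4 symbols of a line lie close together for every gene, and VIM and KRT18 are high in both lines while CEACAM6 and CDH2 are near 0 in one of them.

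Genes of the epithelial junction and adhesion lists were mostly higher in AsPC-1. Of 19 tight junction genes that passed, 13 were higher in AsPC-1 and 0 were higher in PANC-1. Of 19 genes of the adhesion list 14 were higher in AsPC-1 and 1 in PANC-1. The list medians were 1.5 and 2.73 beside -0.61 over all genes. These lists also hold genes of other function, such as the protease inhibitors SPINT1 and SPINT2 and the receptor MST1R. To show what the promoters of this group look like, 4 are printed from RefSeq (GRCh38.p14), each running from 250 bases before to 50 after a listed start, with every match to the E-box letters CAGGTG or CACCTG in capitals. These letters are one another's reverse complement, so both strands are covered. CLDN7 and CRB3 hold the most matches of the group, DSP holds a pair, and CLDN4 holds none although its RNA differed as well.

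CLDN7, chr17:7262429-7262728, minus strand, one of 2 listed starts: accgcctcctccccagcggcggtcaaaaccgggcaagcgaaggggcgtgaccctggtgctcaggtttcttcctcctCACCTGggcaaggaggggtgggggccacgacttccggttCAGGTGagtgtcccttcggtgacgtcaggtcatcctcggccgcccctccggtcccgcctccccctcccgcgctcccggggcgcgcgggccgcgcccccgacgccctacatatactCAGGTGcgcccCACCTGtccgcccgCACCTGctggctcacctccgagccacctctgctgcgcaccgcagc
CRB3, chr19:6464021-6464320, plus strand: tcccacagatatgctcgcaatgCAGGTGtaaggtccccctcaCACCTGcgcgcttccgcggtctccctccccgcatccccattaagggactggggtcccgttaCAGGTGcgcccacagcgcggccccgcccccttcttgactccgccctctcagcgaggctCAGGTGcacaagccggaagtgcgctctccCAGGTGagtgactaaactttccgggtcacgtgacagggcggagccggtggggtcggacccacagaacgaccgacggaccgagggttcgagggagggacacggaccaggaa
DSP, chr6:7541421-7541720, plus strand: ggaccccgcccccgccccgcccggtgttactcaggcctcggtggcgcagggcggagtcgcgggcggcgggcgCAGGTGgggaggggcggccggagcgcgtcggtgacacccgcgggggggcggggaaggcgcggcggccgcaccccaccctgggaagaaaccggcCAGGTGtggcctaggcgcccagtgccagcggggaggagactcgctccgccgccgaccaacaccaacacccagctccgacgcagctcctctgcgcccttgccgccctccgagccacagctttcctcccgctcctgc
CLDN4, chr7:73830746-73831045, plus strand: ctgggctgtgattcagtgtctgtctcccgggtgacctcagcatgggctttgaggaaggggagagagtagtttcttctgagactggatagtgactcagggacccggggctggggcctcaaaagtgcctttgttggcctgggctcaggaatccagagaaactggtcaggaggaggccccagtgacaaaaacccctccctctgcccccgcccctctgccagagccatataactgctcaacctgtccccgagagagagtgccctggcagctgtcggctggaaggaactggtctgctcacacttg

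CLDN7 and CRB3 each had 5 matches in this window, a number reached or passed by 33 of the 35116 promoters in the table (0.094%). The other start listed for CLDN7 had 0. Of the 27 adhesion and tight junction genes higher in AsPC-1, 18 were found in the promoter table with 23 starts, and 11 of the 23 starts (47.8%) held at least 1 match, beside 20.6% of all promoters. DSP, DSG2 and MST1R had 2 matches each. CLDN7 and CRB3 are the promoters with the most matches of the group, so their rarity follows from that choice. List genes that were not called were not searched as a group, and base content was not matched. The shares are thus no support for a role of these letters. A match is a description of letters, and nothing in these data measures what binds there.

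CLDN7, a claudin that seals the space between cells, was at 227, 194, 228 and 224 TPM in AsPC-1 against 83.4, 96.98, 89.3 and 108 TPM in PANC-1. The lines did not overlap, but PANC-1 kept a sizeable level, and the fold was 2.31. CRB3, a polarity protein of the apical membrane, was at 38.2, 32.0, 40.9 and 36.9 TPM in AsPC-1 and at no more than 0.448 TPM in any PANC-1 library (difference 4.94, SE 0.0583). CLDN4 was at 349 to 416 TPM in AsPC-1 against 64.5 to 74.6 TPM in PANC-1 (fold 5.63). DSP, desmoplakin of the desmosome, was at 64.3 to 79.98 TPM against 15.6 to 16.9 TPM. So the same pair of 5-match promoters belonged to a gene with one of the smaller differences of its list and to a gene with the largest.

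CDH1, E-cadherin, the adherens junction protein, was at 61.9, 56.1, 78.7 and 69.1 TPM in AsPC-1 against 5.02, 5.62, 5.79 and 6.55 TPM in PANC-1 (fold 11.6, difference 3.31, SE 0.0747, limma adjusted p 2.09e-10). PANC-1 therefore had E-cadherin RNA at a level like that of its N-cadherin. ST14, the membrane protease matriptase, was at 180 to 240 TPM against 1.32 to 1.76 TPM. Its partner protease PRSS8 was at 15.4 to 21.3 TPM in AsPC-1 against at most 0.139 TPM in PANC-1. Of the matriptase inhibitors, SPINT1 was higher in AsPC-1 (67.2 to 80.9 against 6.73 to 8.71 TPM). SPINT2 was the member of the adhesion list higher in PANC-1 (152 to 176 against 420 to 432 TPM, difference -1.37), a call lost after rescaling and with medians set equal. In the junction core, CTNND1, TJP1, PATJ and PARD6B differed by less than 1 and were not called, with differences of -0.40, -0.64, -0.42 and 0.02. RAB25, a vesicle GTPase common in epithelia, did not reach 1 TPM in 2 libraries.

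Of 22 classical subtype genes that passed, 21 were higher in AsPC-1 and 0 in PANC-1 (median 2.88), and 19 of the 22 were under 1 TPM in every PANC-1 library. Their summed level was 6250 to 7239 TPM in AsPC-1 against 94.7 to 105 TPM in PANC-1, and most of the PANC-1 sum was AGR2, a protein disulfide isomerase of mucus-secreting cells, at 86.7 to 96.1 TPM. AGR2 was also the member not called: it was at 148 to 224 TPM in AsPC-1, and its difference of 1.00 fell just under the size rule. LYZ, lysozyme, was at 1889, 1856, 1919 and 1970 TPM in AsPC-1 against no more than 0.344 TPM in PANC-1. TSPAN8, a tetraspanin, CDH17, liver-intestine cadherin, and LGALS4, a gut galectin, were at 868 to 1058, 870 to 1009 and 409 to 520 TPM in AsPC-1. The same genes reached 0.874, 0.832 and 2.66 TPM in PANC-1.

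The basal-like list did not mirror the classical one. Of its 24 genes 12 did not pass, among them KRT6A, KRT17 and SERPINB3, and of the 12 that did, 7 were higher in AsPC-1 and 1, the cathepsin CTSV, in PANC-1 (not with medians set equal). AREG, an EGF receptor ligand, FAM83A, a signalling adaptor, and DHRS9, a dehydrogenase, were at 46.8 to 60.6, 31.4 to 36.1 and 56.1 to 69.5 TPM in AsPC-1 against at most 2.03, 0.070 and 0.304 TPM. PANC-1 thus lacked most genes of both lists and AsPC-1 held members of both.

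Gut and duct secretory products went with AsPC-1. Of 7 mucins that passed, 6 were higher in AsPC-1 and 0 were higher in PANC-1, and 5 of the 7 were under 1 TPM in every PANC-1 library. MUC13, a membrane mucin of the gut, was at 221, 215, 333 and 334 TPM in AsPC-1 against at most 0.064 TPM in PANC-1. MUC1 was the mucin that both lines carried, at 169 to 267 TPM against 47.0 to 52.4 TPM. Of 10 S100 calcium-binding proteins that passed, 7 were higher in AsPC-1 and 1, S100A3, in PANC-1, while S100A6 lay at 2237 to 2418 TPM in AsPC-1 against 2136 to 2498 TPM in PANC-1 and overlapped. Among keratins, KRT8, KRT18 and KRT19, the pairs of simple epithelia, were abundant in both lines and higher in AsPC-1 by 1.06, 1.33 and 1.11. KRT18 for example was at 2193 to 2526 TPM in AsPC-1 against 879 to 989 TPM in PANC-1. KRT23 and KRT20 were near or at 0 in PANC-1, and KRT80 was higher there (difference -1.12, not called after rescaling).

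Epithelial transcription factors leaned to AsPC-1 with more exceptions than the junction lists. Of 23 that passed, 15 were higher in AsPC-1 and 5 in PANC-1, with a median of 2.17. Over all genes the shares were 10.4% and 34%, so the count for PANC-1 is below the general share. It was 3 with medians set equal. GATA6, the factor most used to mark the classical type, was at 20.1, 19.6, 24.2 and 21.4 TPM in AsPC-1 against 1.14, 1.499, 2.46 and 1.68 TPM in PANC-1 (fold 12.6). HNF4A, a nuclear receptor of gut and liver epithelium, was at 39.4, 35.2, 39.4 and 38.9 TPM in AsPC-1 against at most 0.051 TPM in PANC-1. KLF5, ELF3 and EHF were at 188 to 227, 187 to 269 and 86.1 to 95.7 TPM in AsPC-1, and reached 1.29, 7.32 and 0.260 TPM in PANC-1. ESRP1, which directs epithelial splicing, was at 31.4 to 42.7 TPM against 0.182 to 0.441 TPM, while its relative ESRP2 was at 7.75 to 8.501 TPM against 10.96 to 13.8 TPM and was not called.

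The 5 epithelial factors higher in PANC-1 were FOXA2, SOX9, GATA4, GRHL3 and GRHL1, of which GRHL3 lost its call after rescaling and both GRHL genes lost theirs with medians set equal. FOXA2, a forkhead factor of foregut endoderm, was at 51.8, 44.6, 46.3 and 41.4 TPM in PANC-1 and 0.073, 0.041, 0 and 0.039 TPM in AsPC-1 (difference -5.50, SE 0.0658), and FOXA1 had the opposite pattern, 12.3 to 18.7 TPM in AsPC-1 against 0.211 to 0.335 TPM in PANC-1. Each line therefore expressed 1 of these forkhead paralogues and almost none of the other. SOX9, the factor of duct cells, was at 165, 155, 153 and 147 TPM in PANC-1 and 46.6, 42.4, 51.4 and 49.3 TPM in AsPC-1. GRHL1 and GRHL3 were low in both lines, and GRHL2 reached 0.036 TPM at most. PDX1, the pancreas progenitor factor, was at 10.9 to 11.6 TPM in AsPC-1 against 4.28 to 4.78 TPM in PANC-1.

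**Figure D2:**
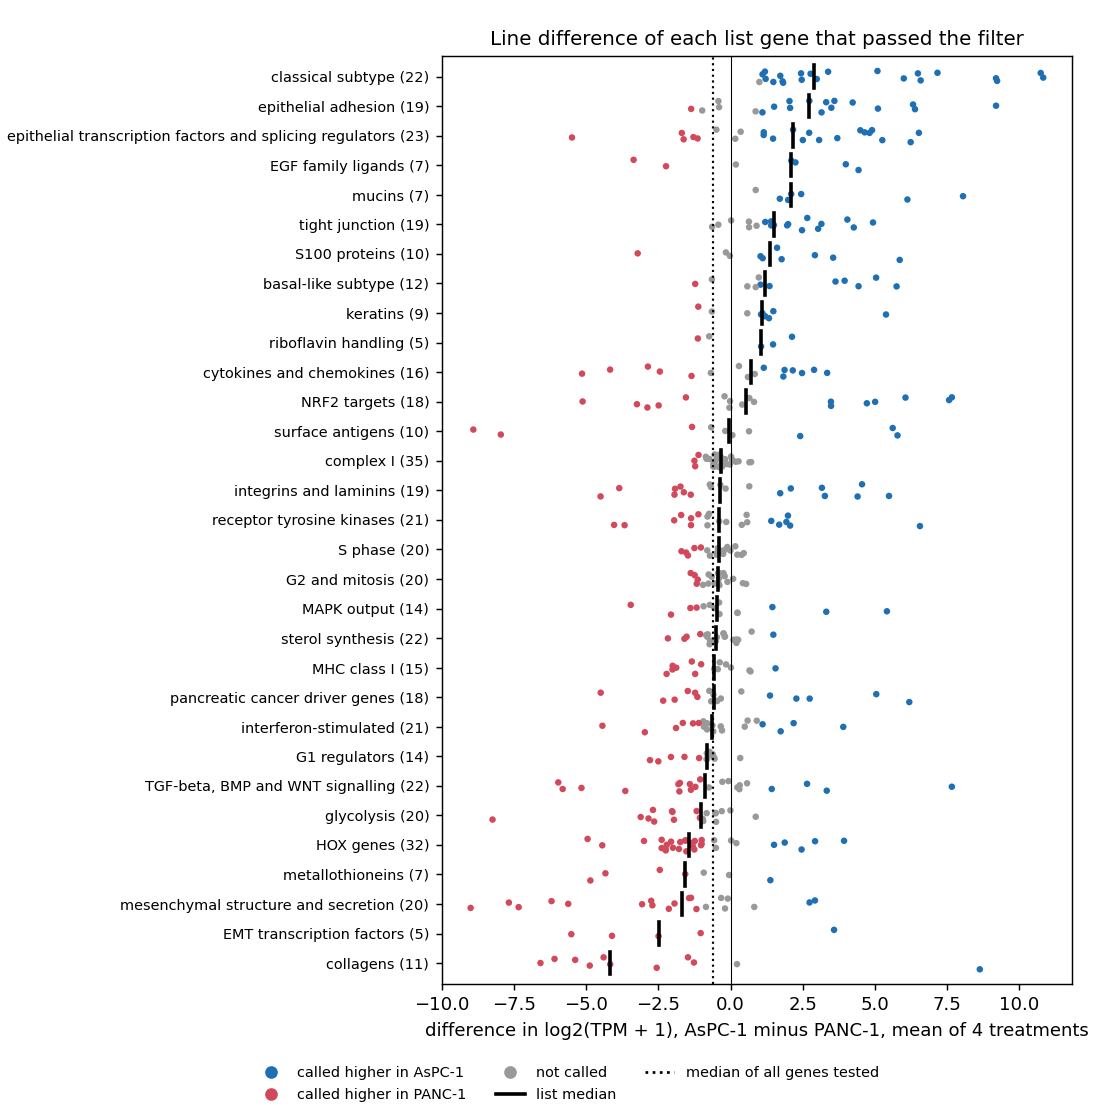
Difference in log2(TPM + 1), AsPC-1 minus PANC-1, of each gene that passed the filter in the 31 lists with at least 5 such genes, ordered by list median. Points are genes coloured by call, thick ticks are list medians, and the dotted line is the median of all genes tested at -0.61. Classical subtype genes lie highest and collagens lowest, and S phase, mitosis, sterol synthesis and complex I genes lie close to the dotted line.

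Among 10 regulators of the mesenchymal state, 5 passed, of which 4 were higher in PANC-1 and 1 in AsPC-1. SNAI1 was at 27.6, 29.5, 23.7 and 24.1 TPM in PANC-1 and 0.406, 0.583, 0.896 and 0.440 TPM in AsPC-1 (fold 45.1). Its paralogue SNAI2 showed the reverse, at 14.97, 15.7, 15.6 and 13.6 TPM in AsPC-1 against at most 0.406 TPM in PANC-1. FOXC2, a forkhead factor of mesoderm, was listed at 0 throughout AsPC-1 and stood at 42.4 to 48.2 TPM in PANC-1, and TWIST2 was at 4.28 to 5.45 TPM in PANC-1 and at most 0.053 TPM in AsPC-1. ZEB1 was present in both lines, at 7.67 to 9.06 TPM in AsPC-1 against 16.9 to 18.8 TPM in PANC-1. Its difference of -1.04 was called, but not after rescaling without the MT- genes. ZEB2, TWIST1 and PRRX1 did not pass.

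Of 20 mesenchymal structure and secretion genes that passed, 13 were higher in PANC-1 and 2 in AsPC-1 (median -1.69), beside 34% and 10.4% of all genes. SPARC, a secreted matrix protein, had the largest difference of the genes called for PANC-1, at 575, 509, 522 and 482 TPM there and 0, 0, 0.047 and 0 TPM in AsPC-1. LOXL2, MMP2 and CD44, a collagen-modifying oxidase, a gelatinase and the hyaluronan receptor, were at 88.1 to 106, 194 to 220 and 461 to 500 TPM in PANC-1. In AsPC-1 LOXL2 and MMP2 stayed at or under 0.492 TPM and CD44 was at 52.2 to 59.5 TPM. The members higher in AsPC-1 were S100A4, at 3624 to 4071 TPM against 467 to 521 TPM, and TNC, tenascin, at 9.94 to 11.6 TPM against 0.664 to 0.801 TPM. FN1, fibronectin, a standard marker of this state, did not reach 1 TPM in any library, and contractile genes were low, with ACTA2 at 1.37 to 2.34 TPM over all 8 libraries.

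Collagen genes gave 9 of 11 higher in PANC-1 and 1 in AsPC-1 (median -4.17), beside 34% and 10.4% of all genes. COL1A1, the main chain of type I collagen, was at 107, 99.4, 107 and 98.9 TPM in PANC-1 and at most 0.121 TPM in AsPC-1, but its partner chain COL1A2 did not pass the filter. COL18A1, a basement membrane collagen, was at 606 to 656 TPM against 12.9 to 14.9 TPM. The collagen of AsPC-1 was COL17A1, a transmembrane collagen of hemidesmosomes, at 472, 460, 436 and 426 TPM against 0.143, 0.133, 0.103 and 0.127 TPM in PANC-1. COL6A1 did not differ by 1 (64.6 to 76.7 against 58.2 to 65.7 TPM), although its partner COL6A2 was at 65.0 to 73.0 TPM in PANC-1 and no more than 0.020 TPM in AsPC-1.

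Integrins and laminins did not lean to 1 line as a list. Of 19 that passed, 7 were higher in AsPC-1 and 7 in PANC-1, a count for PANC-1 near the 34% of all genes. After rescaling the counts were 8 and 6, and the list median went from -0.35 to 0.037. ITGB4, which with integrin α6 builds hemidesmosomes, was at 463, 423, 399 and 385 TPM in AsPC-1 against 50.1, 45.7, 43.1 and 43.5 TPM in PANC-1. LAMB3 and LAMA3, laminin chains on which those structures rest, were higher in AsPC-1 by 5.49 and 4.56. With COL17A1, these hemidesmosome genes were thus high in AsPC-1. PANC-1 instead had more of ITGA5, ITGAV, ITGA3, ITGB3 and ITGB5 (the last not called after rescaling), subunits of fibronectin, vitronectin and laminin receptors, and of LAMB1 and LAMC1. ITGA5 was at 44.0 to 50.2 TPM in PANC-1 and 0.740 to 1.499 TPM in AsPC-1. ITGB1, the shared partner, was at 149 to 162 TPM in AsPC-1 against 189 to 206 TPM in PANC-1.

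HOX genes set position along the body axis and lie in 4 clusters. Of 32 that passed, 5 were higher in AsPC-1 and 23 in PANC-1 (median -1.44), beside 10.4% and 34% of all genes. With library medians set equal, 5 and 14 were called. The direction differed by cluster and within cluster A. All 5 genes higher in AsPC-1, HOXA3, HOXA9, HOXA10, HOXA11 and HOXA13, were in cluster A, where HOXA5 and HOXA6 were among those higher in PANC-1. HOXA10 was at 26.1, 26.5, 25.5 and 26.3 TPM in AsPC-1 against 0.811, 0.922, 0.735 and 0.639 TPM in PANC-1. HOXA13 was at 38.6, 39.1, 48.8 and 40.7 TPM in AsPC-1 against 4.46, 5.49, 3.54 and 5.11 TPM in PANC-1. In clusters B and C both lines expressed most genes, with none called higher in AsPC-1. HOXB9 was at 139, 145, 140 and 149 TPM in PANC-1 and 5.88, 5.08, 6.24 and 5.30 TPM in AsPC-1, while HOXB7 in the same cluster was not called (79.1 to 97.4 against 54.6 to 62.7 TPM). HOXC13 was at 50.8 to 56.6 TPM against 0.509 to 1.09 TPM, and HOXC11 was at 15.5 to 17.6 TPM in PANC-1 and 17.9 to 20.2 TPM in AsPC-1. In cluster D, HOXD1, HOXD3, HOXD4, HOXD10 and HOXD11 were listed at 0 throughout AsPC-1 and lay between 0.770 and 5.30 TPM in PANC-1.

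**Figure D3:**
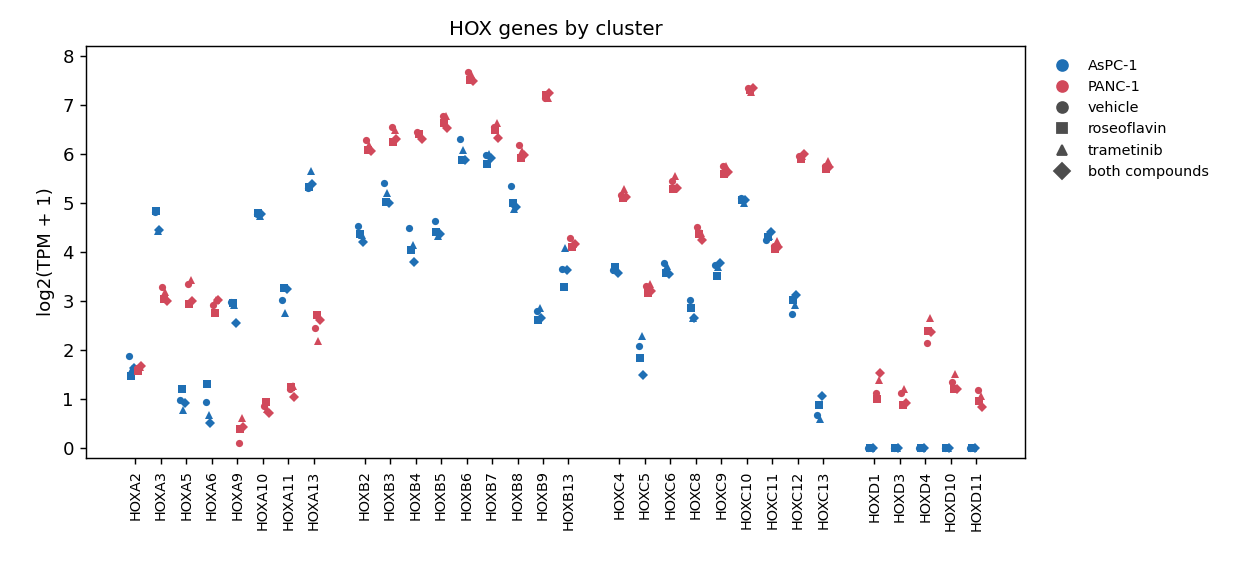
Level of HOX genes in each library, as log2(TPM + 1), in cluster order A to D. Colour marks the line and symbol the treatment. HOXA9 to HOXA13 are higher in AsPC-1, most of clusters B and C is higher in PANC-1, and the 5 genes of cluster D are at 0 in AsPC-1.

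Of 18 pancreatic cancer driver genes that passed, 5 were higher in AsPC-1 and 6 were higher in PANC-1 (5 and 3 with medians set equal), and 7 were not called. Over all genes 10.4% were higher in AsPC-1 and 34% in PANC-1, so the count for PANC-1 is near the general share. Their median of -0.58 lay near the -0.61 of all genes. CDKN2A, which encodes the p16 and p14ARF cell cycle inhibitors, was at 77.7, 77.2, 67.4 and 67.5 TPM in AsPC-1 and listed at 0 in all 4 PANC-1 libraries. CDKN2B, its neighbour on chromosome 9, was at 31.4, 31.9, 33.5 and 31.8 TPM in AsPC-1 and also listed at 0 in PANC-1. MTAP, which salvages methionine and lies beside them, was at 8.66, 9.28, 8.71 and 8.72 TPM in AsPC-1 against 0.981, 1.07, 0.998 and 1.05 TPM in PANC-1. On the MTAP side the nearest gene tested was IFNE, interferon epsilon, at 0.944 to 2.28 TPM in AsPC-1 against 0.226 to 0.681 TPM in PANC-1, a difference of 0.90 that was not called in the deposited TPM but was after rescaling and with medians set equal. KLHL9 lies beyond it and DMRTA1 lies on the far side of CDKN2B. Both were expressed in each line, KLHL9 at 5.75 to 7.85 TPM in AsPC-1 against 11.96 to 12.8 TPM in PANC-1, and DMRTA1 at 1.40 to 1.91 TPM and 1.02 to 1.26 TPM. These 3 neighbouring genes were chosen after their values were seen. PANC-1 is known for a homozygous deletion of CDKN2A. Its part in these values was not tested. The RNA level in AsPC-1 does not tell whether the gene is intact there. In GENCODE release 29 (GRCh38) MTAP lies at chr9:21802543-21937651 on the plus strand, CDKN2A at chr9:21967753-21995301 and CDKN2B at chr9:22002903-22009363, both on the minus strand.

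CDKN1A, which encodes the cell cycle inhibitor p21, was at 122 to 130 TPM in PANC-1 and 27.4 to 31.4 TPM in AsPC-1. ARID1A, a chromatin remodelling subunit, was at 41.6 to 46.2 TPM in PANC-1 and 7.79 to 8.11 TPM in AsPC-1. In the TGF-β pathway SMAD3, SMAD2 and the receptor gene TGFBR1 were higher in PANC-1 (SMAD2 not after rescaling, TGFBR1 not with medians set equal), and TGFBR2 in AsPC-1 (84.97 to 89.7 against 32.0 to 34.0 TPM). SMAD4 was at 2.68 to 2.93 TPM in AsPC-1 against 4.95 to 5.23 TPM in PANC-1 and was not called. RNF43, which restrains WNT receptors, was at 12.3 to 13.6 TPM in AsPC-1 against 0.915 to 1.26 TPM in PANC-1. MYC (63.2 to 79.5 against 53.7 to 57.3 TPM) was not called.

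Growth factor receptors showed 6 of 21 higher in AsPC-1 and 7 in PANC-1, a count for PANC-1 near the 34% of all genes. After rescaling the counts were 6 and 4. ERBB3, the HER3 receptor for neuregulins, was at 135, 125, 141 and 128 TPM in AsPC-1 against 0.333, 0.416, 0.429 and 0.455 TPM in PANC-1. Its ligand gene NRG1 had the complementary pattern, listed at 0 in AsPC-1 against 4.15, 3.48, 3.61 and 3.65 TPM in PANC-1, and NRG2 was likewise higher in PANC-1. Of the EGF receptor ligands, TGFA, AREG and EREG were higher in AsPC-1 by 3.99, 4.44 and 2.25, while EGFR was at 61.8 to 66.0 TPM in AsPC-1 against 41.6 to 45.6 TPM in PANC-1 and was not called. MET and MST1R, the receptors for hepatocyte growth factor and its relative, were higher in AsPC-1 by 1.99 and 2.06. RET, ROR1, ROR2, AXL, IGF1R, EPHB2 and EPHB4 were higher in PANC-1, but AXL, EPHB2 and EPHB4 lost the call after rescaling. RET was listed at 0 in AsPC-1 and was at 17.0, 13.7, 17.5 and 13.8 TPM in PANC-1.

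Genes induced by ERK and fed back on it were not set at a common level by the line. Of 14 that passed, 3 were higher in AsPC-1 and 4 in PANC-1, beside 10.4% and 34% of all genes. DUSP6, an ERK phosphatase, was at 193, 176, 155 and 136 TPM in AsPC-1 against 18.6, 17.5, 13.98 and 12.55 TPM in PANC-1, and DUSP4 was at 43.6 to 49.2 TPM against at most 0.143 TPM. DUSP5, SPRY4, ETV5 and PHLDA1 were higher in PANC-1, SPRY4 and PHLDA1 not with medians set equal. The ETS factors ETV4 and ETV5 parted: ETV4 was at 43.2 to 44.6 TPM in AsPC-1 against 14.6 to 16.03 TPM in PANC-1, and ETV5 was at 10.0 to 11.5 TPM and 43.3 to 53.2 TPM. DUSP6 and ETV5 thus ranked the lines in opposite order in every treatment.

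Cell cycle genes lay near the median of all genes. Of 20 S phase genes 5 were higher in PANC-1 and 0 in AsPC-1, and of 20 mitotic genes 4 and 0, with medians of -0.40 and -0.43 beside -0.61 over all genes. Both counts for PANC-1 are below the 34% of all genes. With library medians set equal, S phase gave 2 for PANC-1 and mitosis 0, and mitosis 1 for AsPC-1. MKI67, the proliferation antigen Ki-67, was at 43.2 to 45.2 TPM in AsPC-1 against 52.6 to 64.5 TPM in PANC-1. Among G1 regulators 5 of 14 were higher in PANC-1, a count near the 34% of all genes, namely CCNE1, CDK6 (not after rescaling), CDKN1A, CDKN1C and CDKN2C. CDKN2C, the p18 inhibitor of the same family as CDKN2A, was at 41.1 to 54.6 TPM in PANC-1 and 5.16 to 6.91 TPM in AsPC-1.

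Signals of the TGF-β, BMP and WNT families gave 4 of 22 higher in AsPC-1 and 11 higher in PANC-1, and 5 and 7 with medians set equal. The shares over all genes were 10.4% and 34%. BMP4, a secreted ligand, was at 273, 266, 211 and 220 TPM in AsPC-1 against at most 0.503 TPM in PANC-1. ID1 and ID3, which BMP receptors induce in many cells, were higher in PANC-1, ID1 not with medians set equal. ID3 was at 87.7, 67.6, 91.3 and 79.97 TPM there and 0.793, 1.18, 2.04 and 1.29 TPM in AsPC-1. TGFB1, TGFB2 and TGFB3 were all higher in PANC-1, TGFB2 at 25.5 to 31.9 TPM against 1.06 to 1.75 TPM, and TGFB1 lost its call after rescaling. The secreted WNT antagonists DKK1, DKK3 and SFRP1 were higher in PANC-1. SFRP1 was listed at 0 in AsPC-1 and was at 65.2, 64.8, 57.6 and 59.8 TPM in PANC-1. LGR5, a WNT target of gut stem cells, was at 9.55 to 11.7 TPM in AsPC-1 against 0.119 to 0.170 TPM in PANC-1.

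Metabolic and stress lists differed in their balance between the lines. Of 20 glycolysis genes, 10 were higher in PANC-1, beside 34% of all genes, and 0 in AsPC-1 (8 and 1 after rescaling). Their median of -1.02 lay below the -0.61 of all genes. LDHB, the lactate dehydrogenase B chain, was listed at 0 throughout AsPC-1 and stood at 295, 313, 292 and 315 TPM in PANC-1, while LDHA was at 748 to 911 TPM and 1188 to 1266 TPM and was not called. HK1, ENO1, PGAM1 and the lactate exporter SLC16A3 were higher in PANC-1 by 2.65, 1.96, 2.03 and 2.84. The glucose transporter SLC2A1 leaned the other way and was not called (104 to 142 TPM in AsPC-1, 55.0 to 83.6 TPM in PANC-1). Complex I genes gave 3 of 35 for PANC-1 and 0 for AsPC-1, which turned to 0 and 2 after rescaling and with medians set equal. Sterol synthesis genes gave 4 and 1 of 22 (2 and 2 with medians set equal), both lists with medians nearer 0 than that of all genes.

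Targets of NRF2, the oxidative stress factor, split within the list, with 7 of 18 higher in AsPC-1 and 5 in PANC-1. Over all genes 10.4% were higher in AsPC-1 and 34% in PANC-1, so the count for PANC-1 does not exceed the general share. The aldo-keto reductases AKR1C1, AKR1C2, AKR1C3 and AKR1B10, the peroxidase GPX2 and the dehydrogenase ALDH3A1 were expressed in AsPC-1 and nearly silent in PANC-1. AKR1C3 was at 211, 223, 231 and 237 TPM against 0.199, 0.291, 0.073 and 0.189 TPM, and GPX2 was at 189 to 215 TPM and listed at 0 in PANC-1. AKR1C1 and AKR1C2 are near-identical copies, so the split of reads between them is uncertain. HMOX1, heme oxygenase, ME1, GCLM and UGDH were among those higher in PANC-1. NQO1, TXNRD1, SRXN1 and GCLC, targets used as a common readout of the pathway, were not called. Of 7 metallothioneins, which bind zinc and copper and are also near-identical copies, 4 were higher in PANC-1 and 1 in AsPC-1, with MT2A at 645 to 826 TPM against 27.5 to 46.8 TPM.

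Roseoflavin enters cells through riboflavin transporters and is made into cofactor analogues by riboflavin kinase and FAD synthetase. Both transporter genes that passed were higher in AsPC-1. SLC52A2 was at 104, 96.6, 87.2 and 99.6 TPM in AsPC-1 against 34.3, 32.7, 34.2 and 35.5 TPM in PANC-1, and SLC52A3 at 14.4 to 16.4 TPM and 2.55 to 2.98 TPM. RFK, the kinase, was lower in AsPC-1, at 5.62, 5.77, 7.53 and 6.87 TPM against 15.7, 15.4, 15.02 and 14.8 TPM, a call lost after rescaling. FLAD1, the synthetase, was at 15.1 to 17.2 TPM and 25.6 to 29.6 TPM and was not called. BLVRB, a flavin reductase, was higher in AsPC-1 by 1.06.

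Immune genes were mixed. Of 15 antigen presentation genes of class I, 7 were higher in PANC-1 and 1 in AsPC-1, beside 34% and 10.4% of all genes. The counts were 4 and 3 after rescaling. HLA-B was at 24.6, 23.3, 28.3 and 27.6 TPM in AsPC-1 against 102, 113, 103 and 113 TPM in PANC-1, while B2M, the shared light chain, was at 487 to 573 TPM and 522 to 539 TPM. HLA genes vary between people and reads of one can map to another, so these levels are uncertain. Interferon-stimulated genes gave 4 of 21 for AsPC-1 and 6 for PANC-1, beside 34% of all genes for PANC-1, and the balance turned to 5 and 4 after rescaling and to 7 and 4 with medians set equal. OAS1 was at 44.9 to 49.4 TPM in AsPC-1 against 2.00 to 2.56 TPM in PANC-1, and IFI6 at 2.06 to 4.86 TPM and 87.2 to 105 TPM. Of 16 cytokine genes, 7 were higher in AsPC-1, among them IL18, CXCL16, CXCL5 and CCL20, and 5 in PANC-1, among them CCL2, CSF1, CXCL1 and IL11. These counts stand beside 10.4% and 34% of all genes. CCL2, the monocyte attractant, was at 32.9 to 36.5 TPM in PANC-1 and at most 0.057 TPM in AsPC-1. Of 2 class II genes that passed, HLA-DMA was higher in AsPC-1 and CD74 in PANC-1.

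Surface antigens used to tell pancreatic tumour cells apart also split, with 3 of 10 higher in each line, but 4 for AsPC-1 and 2 for PANC-1 after rescaling and with medians set equal. The count for PANC-1 is near the 34% of all genes. MSLN, mesothelin, and F3, tissue factor, were at 197 to 222 and 220 to 238 TPM in AsPC-1 against 3.12 to 3.53 and 2.76 to 3.51 TPM in PANC-1. L1CAM, a neural adhesion molecule, and CD24 were at 253 to 277 and 489 to 576 TPM in PANC-1 and at most 0.091 and 0.176 TPM in AsPC-1. CD24 has near-identical pseudogenes, so its level is uncertain. PRAME was the only one of 18 cancer-testis antigens to pass, at 95.1 to 98.5 TPM in PANC-1 and listed at 0 in AsPC-1. Of 15 neural genes 4 passed and all 4 were higher in PANC-1, among them TUBB3 at 89.1 to 108 TPM against 1.25 to 1.85 TPM and CHGB at 10.6 to 12.9 TPM against 0, while 11, CHGA and INSM1 among them, did not pass.

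Markers of other cells were nearly absent, with an exception in AsPC-1. Of 17 acinar and islet genes only BHLHA15 passed, and it was not called. Of 11 immune, endothelial and fibroblast genes LUM and CD14 passed, both higher in AsPC-1, and the summed level of the list was 106 to 150 TPM in AsPC-1 against 0.637 to 1.85 TPM in PANC-1. LUM, lumican, a proteoglycan of fibroblasts, was at 103, 111, 145 and 146 TPM in AsPC-1. The other fibroblast markers DCN and PDGFRA reached 0.083 and 0 TPM there, and PTPRC and PECAM1, of blood and endothelial cells, reached 0.006 and 0.014 TPM.

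Outside the lists, the 15 called genes with the largest differences and a mean of at least 10 TPM in the higher line were read in each direction. Those for AsPC-1 were CEACAM6, LYZ, TSPAN8, CEACAM5, CDH17, COL17A1, LCN2, TMEM176B, MUC13, TM4SF4, GPA33, NPNT and 3 UGT1A genes, with differences from 7.77 to 10.84. LCN2, the iron-binding lipocalin, was at 336 ± 30.2 TPM (SD over the 4 treatments) in AsPC-1 against 0.096 ± 0.025 TPM in PANC-1, and GPA33, a gut surface antigen, was at 239 ± 37.9 TPM and listed at 0 in PANC-1. The UGT1A genes share exons, so UGT1A9, UGT1A8 and UGT1A3 at 222, 219 and 218 TPM cannot be told apart. Those for PANC-1 included SPARC, FBXO27, CD24, APOE, LDHB, L1CAM, FBXO17, MXRA8, MMP2, BNIP3, SMARCA1, BASP1, MRC2 and FKBP10, with differences from -9.01 to -7.30. APOE, the lipid carrier, was at 434 ± 27.2 TPM (SD over the 4 treatments) in PANC-1 and 0.134 ± 0.091 TPM in AsPC-1. BNIP3, a mitophagy receptor induced by low oxygen, and SMARCA1, a chromatin remodeller, were at 189 ± 28.99 and 222 ± 7.498 TPM in PANC-1, BNIP3 being listed at 0 in AsPC-1. In all, 395 of the 4414 genes higher in PANC-1 were listed at 0 in every AsPC-1 library. Of the 1355 genes higher in AsPC-1, 128 were listed at 0 in every PANC-1 library, a similar share of the calls. For scale, each AsPC-1 library listed 557 to 599 of all tested genes at 0, and each PANC-1 library 202 to 244.

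Difference also varied by chromosome. The median over the genes tested on chromosome 8 was 0.21, the highest of all chromosomes tested, and 25.3% of its 439 genes were higher in AsPC-1 beside 10.4% of all genes. The lowest medians were those of chromosome 6 (-0.99), chromosome 15 (-0.94) and the X chromosome (-0.93). After rescaling the medians of chromosomes 8 and 6 were 0.59 and -0.66, and those of chromosomes 21, 20, 13, 4 and 7 were also above 0, at most 0.13. The order was alike in each treatment: the median of chromosome 8 was 0.26 with vehicle, 0.17 with roseoflavin, 0.23 with trametinib and 0.19 with both.

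**Figure D4:**
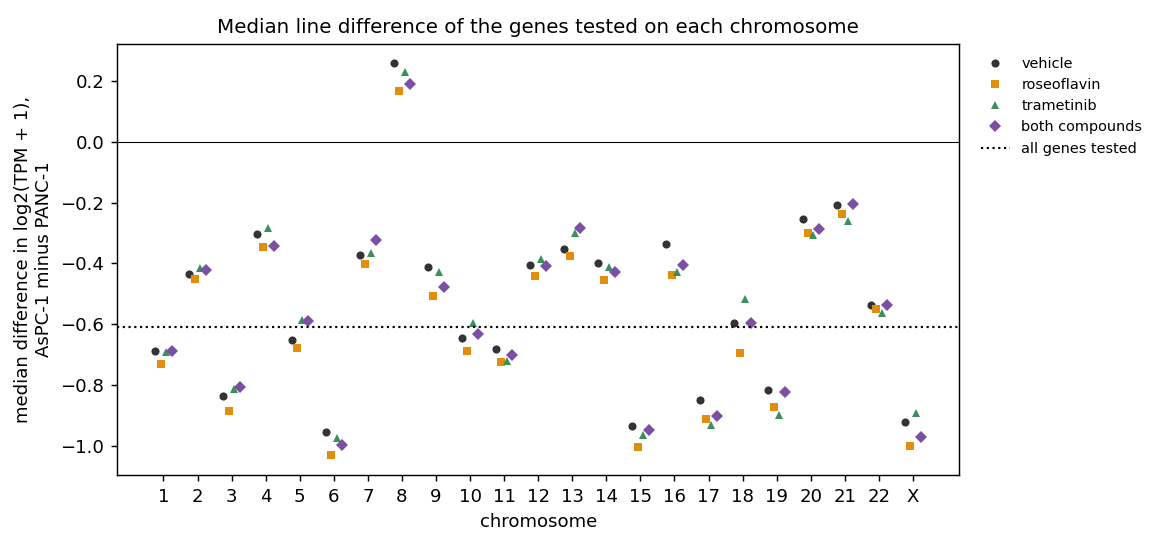
Median difference in log2(TPM + 1), AsPC-1 minus PANC-1, over the genes tested on each chromosome, with 1 symbol per treatment and the median of all genes as a dotted line. Chromosome 8 lies above 0 in all 4 treatments, and chromosomes 6, 15, 17 and X lie lowest.

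The differences were steady across treatments. The SD of a gene's 4 differences had a median of 0.12 and a 95th percentile of 0.29, and the sign was the same in all 4 treatments for 11862 genes. The other 1114 genes changed sign, none with a mean difference above 0.87 in size. The 10 genes with the largest SD among those with a mean of at least 10 TPM were ANGPTL4, MT1X, NUPR1, HMOX1, NDRG1, ENO2, ADM, PFKFB4, MT1A and DDIT3, and several of these are known to answer low oxygen, metal or amino acid stress. ANGPTL4, a lipase inhibitor, was at 18.7, 13.03, 23.7 and 6.88 TPM in AsPC-1 against 251, 340, 227 and 317 TPM in PANC-1, so its difference ran from -3.20 with trametinib to -5.33 with both compounds. HMOX1 was at 11.1, 8.38, 12.4 and 12.6 TPM in AsPC-1 against 273, 657, 257 and 668 TPM in PANC-1. NDRG1, a gene induced by low oxygen, was at 104, 64.9, 122 and 48.2 TPM in AsPC-1 against 25.2, 32.7, 24.0 and 35.8 TPM in PANC-1. It was the one of the 10 higher in AsPC-1, and its difference shrank from 2.00 with vehicle to 0.42 with both compounds. All 10 kept the sign of their difference in every treatment.

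**Figure D5:**
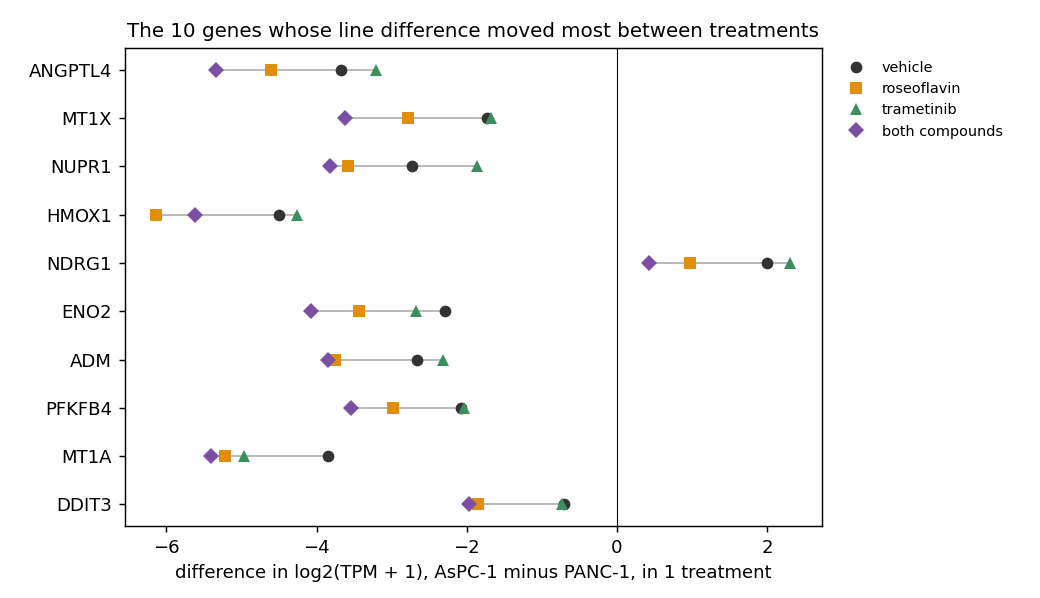
Difference in log2(TPM + 1), AsPC-1 minus PANC-1, in each of the 4 treatments for the 10 genes with the largest SD of that difference. Each symbol is 1 treatment and the grey line spans the 4 values. The roseoflavin and combined treatments lie to the left of vehicle and trametinib for every gene, and no gene crosses 0.

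Whether a line difference depended on a compound was tested with a line by compound term, AsPC-1 change minus PANC-1 change. The term for roseoflavin passed for 26 genes (0.2%) and the term for trametinib for 0 (0%), with 2059 and 1634 genes at an unadjusted p under 0.05. The roseoflavin count was 0 when any 1 of the 8 libraries was left out, which leaves 1 residual degree of freedom, and 11 after rescaling. Of the 26 terms 25 were negative, which means the difference moved towards PANC-1, and 25 of the genes kept the sign of their line difference in all treatments. DDIT3, a stress transcription factor, had the smallest adjusted p: it was at 35.4, 26.4, 36.3 and 26.7 TPM in AsPC-1 against 58.3, 97.3, 60.9 and 107 TPM in PANC-1 (term -1.19, SE 0.069, limma adjusted p 0.0159). DDIT4, an mTOR inhibitor, ENO2, an enolase, MT1E, a metallothionein, and VEGFA, a vessel growth factor, followed, with terms of -0.91, -1.27, -0.95 and -0.83. VEGFA was at 25.7, 19.1, 26.9 and 20.4 TPM in AsPC-1 against 47.8, 63.4, 47.7 and 66.0 TPM in PANC-1, so the libraries with roseoflavin were lower in AsPC-1 and higher in PANC-1 for this gene. For trametinib the smallest adjusted p was 0.217, shared by genes that included WFDC10B, LGALS1, SLC51B and MUC13. Of these MUC13 is silent in PANC-1, so its term is the 221 and 215 TPM without trametinib against 333 and 334 TPM with it in AsPC-1.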

How the data were processed

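Per the labels' protocols, RNA was taken from AsPC-1 and PANC-1 cells in methylcellulose culture, 1 library per line and treatment. The authors deposited 1 table of TPM per gene, per the file headers, with all 8 columns summing to 1000000. The submitters' processing notes name STAR 2.7.3a, HTSeq 2.0.2 and hg38; how TPM was derived, strand handling and the annotation are not given in the sources used here. The TPM keep no depth, so no counting interval is given.

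Values were read as log2(TPM + 1) for genes with an NM_ entry and at least 1 TPM in at least 2 libraries. Limma 3.58.1 in R 4.3.3 (trended eBayes) fitted line and treatment with 3 residual degrees of freedom, or line, both compounds and their line terms with 2. Benjamini-Hochberg adjustment covered all genes tested. Alternatives were rescaling without MT- genes, equal medians, quantile normalization, a pseudocount of 0.1, other filters, no treatment term and leaving out each library. Scripts were tested on simulated data.

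The members and lists were chosen with earlier results of these data known. The rule for named genes took list members, the 15 largest called differences per direction and the 10 largest spreads (both where mean TPM reached 10), and the 5 smallest adjusted p per line by compound term. The neighbours of CDKN2A and the genes named under other observations were chosen after their values were seen. Coordinates come from GENCODE release 29 (99.8% of the tested genes found) and promoters from RefSeq. No 2 libraries of a line were duplicates: at most 0.19% of genes above 0 had equal values. XIST, TSIX, Y-linked genes and some other genes that the rule names are not reported here.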

Additional observations from a re-analysis of the deposited data

Results flagged for a closer look

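The change with roseoflavin differed between the lines, by a line by compound term that passed limma's adjusted p of 0.05, for 9 of the genes named here. The term, AsPC-1 change minus PANC-1 change on the log2(TPM + 1) scale, was -1.49 for HMOX1, -1.31 for ADM, -1.27 for ENO2, -1.19 for DDIT3, -0.949 for MT1E, -0.947 for MT2A, -0.915 for DDIT4, -0.828 for VEGFA and -0.698 for SLC2A1. Without trametinib, HMOX1 changed by -0.37 with roseoflavin in AsPC-1 and by 1.26 in PANC-1, and ADM by -0.87 and 0.23. With and without trametinib, the AsPC-1 change was below the PANC-1 change for these genes. None of the terms kept its call when any 1 library was left out, and the number of genes called ranged from 0 to 158 over the alternatives.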

How the results depend on the processing

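The calls for the lines, 1355 for AsPC-1 and 4414 for PANC-1, stayed within 1.5 times under 14 alternatives each, which include leaving out each library (1338 to 1370 and 4366 to 4432). Leaving out either library of a treatment gave the same line differences and counts. For the line comparison those 8 fits thus amount to 1 per treatment, and the 14 alternatives are not all separate checks. The calls were 2124 and 2310 after quantile normalization, 2090 and 2356 with medians set equal, 740 and 2422 where mean TPM reached 10, 2863 and 8954 by adjusted p alone, and 699 and 1493 at a difference of at least 2. The 26 genes with a roseoflavin term were 11 after rescaling without MT- genes, 123 with medians set equal, 158 where mean TPM reached 10, and 0 with a pseudocount of 0.1, with no filter, with genes lacking an NM_ entry and in each of the 8 fits without 1 library, which leave 1 residual degree of freedom. The trametinib term gave 2 genes with medians set equal and 2 where mean TPM reached 10, and 0 otherwise. Some medians of lists and differences of genes that were not called changed sign. Setting medians equal moves every difference up by the same amount, and the median over all genes went from -0.61 to -0.067. Small negative values therefore had to change sign under that setting. For the other settings the cause was not tested. With medians set equal the list medians became 0.189 for integrins and laminins, 0.148 for receptor tyrosine kinases, 0.0633 for MAPK output, 0.139 for S phase, 0.111 for mitosis, 0.0475 for sterol synthesis, 0.193 for complex I and 0.479 for surface antigens, and the differences 0.348 for ACTA2, 0.14 for CTNND1, 0.0492 for ESRP2, 0.522 for GCLC, 0.189 for ITGB1, 0.0116 for LDHA, 0.154 for MKI67, 0.116 for PATJ, 0.517 for S100A6 and 0.331 for SRXN1. After quantile normalization the list medians were 0.174 for receptor tyrosine kinases, 0.000585 for MAPK output, 0.0672 for S phase, 0.0779 for sterol synthesis, 0.108 for complex I and 0.441 for surface antigens, and the differences 0.615 for ACTA2, 0.0275 for CTNND1, 0.0579 for ESRP2, 0.504 for GCLC, 0.0506 for MKI67, 0.148 for PATJ, 0.223 for S100A6, 0.00452 for SMAD4 and 0.226 for SRXN1. After rescaling they were 0.0374 for integrins and laminins, 0.0349 for complex I, 0.319 for surface antigens, 0.063 for ACTA2, 0.361 for GCLC, 0.0374 for ITGB1, 0.367 for S100A6 and 0.176 for SRXN1. Receptor tyrosine kinases stood at 0.473 where mean TPM reached 10 and class II genes at -0.03 with a pseudocount of 0.1. Over the fits without 1 library, B2M ranged from -0.021 to 0.0661 (-0.0133 without either both-compound library), PARD6B from -0.0389 to 0.0562, GCLC from -0.138 to 0.0955 (0.0566 without either roseoflavin library) and S100A6 from -0.0904 to 0.0115. No paired analysis by replicate number was possible because each line and treatment had 1 library. The libraries were matched by treatment. Leaving the treatment term out gave the same counts. In this balanced design each mean difference is the same with or without that term, so the equal counts are no check on it.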

Other observations

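The patterns here were noticed in the data and are given as values. Some neighbouring genes were expressed together in 1 line, and how many such runs the gene order alone would give was not computed. Among genes at 1 TPM or more in all 4 libraries of a line, runs of at least 3 neighbours that stayed under 0.5 TPM in all 4 libraries of the other line numbered 12 in AsPC-1 (47 genes) and 32 in PANC-1 (129 genes). For scale, 683 tested genes were under 1 TPM in all 4 PANC-1 libraries and 1546 in all 4 AsPC-1 libraries, so PANC-1 had more genes to form runs. Overlapping genes were counted separately, as in a run of 7 UGT1A genes. A run need not be an unbroken block, and what lies between its members was not examined. The kallikrein proteases on chromosome 19 formed a run of 7 in AsPC-1, KLK1, KLK6, KLK7, KLK8, KLK9, KLK10 and KLK11, with KLK10 at a mean of 263 TPM. In that run KLK1 ends at position 50823787 and KLK6 starts at 50958631. TMEM176B, TMEM176A and AOC1 on chromosome 7 were at means of 285, 134 and 81.9 TPM in AsPC-1. The longest run, 19 genes, was the protocadherin α and β cluster on chromosome 5 in PANC-1, where PCDHA12 was at a mean of 8.73 TPM. The α genes share exons, so their levels cannot be told apart. The imprinted genes MKRN3, SNRPN and SNURF on chromosome 15 were at means of 2.62, 62.5 and 128 TPM in PANC-1 and under 0.5 TPM in AsPC-1, and SNRPN and SNURF overlap.

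Zinc finger genes of chromosome 19, repressors that lie there in clusters, leaned to PANC-1. Of 220 tested with a ZNF or ZFP name, 147 (66.8%) were higher in PANC-1 and 1 in AsPC-1, and 33 were listed at 0 in every AsPC-1 library. Of the other 803 genes of that chromosome 38% were higher in PANC-1, as were 48.1% of 239 zinc finger genes elsewhere. The medians of the 3 groups were -1.49, -0.68 and -0.90, and -1.32, -0.33 and -0.68 after rescaling.

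Abundant genes were not all unequal. Of 497 genes at 100 TPM or more in all 8 libraries, 84 differed by no more than 0.25 in each of the 4 treatments and 74 were called.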
